A study of Mus musculus with 2 samples.

Results

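Outer segment disc and interphotoreceptor matrix genes were described in mouse retina from a wild-type RNA sample and a Samd7 KO (knockout) sample, as labelled. The set held 9 genes: the disc rim tetraspanins Prph2 and Rom1, the disc base proteins Prom1 and Cdhr1, the axonemal proteins Rp1 and Rp1l1, the matrix proteins Impg1 and Impg2, and the membrane-shaping protein Reep6. Genes were listed by function. Their probes were the non-control probes whose transcript accession belonged to a listed gene, which gave 14 of 55677 probes and 9 of the 21367 named genes of the array. All 9 genes had at least 1 probe, and all 14 probes were well above background on both arrays, with none saturated.

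The retinas were dissected at postnatal day 12, and total RNA was labelled with Cy3 and hybridised to 1-colour Agilent arrays, with 1 array per genotype. The product of Samd7 is a photoreceptor protein with a sterile alpha motif domain. The comparison asks how the expression profile of the retina lacking Samd7 differs from that of the wild type. The strain, the number of animals behind each RNA sample and the deleted part of Samd7 are not given in the sources used here. There were no replicates, so the differences have no p-value and no spread between animals, and each compares these 2 arrays.

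The photoreceptor outer segment is a modified cilium filled with a stack of membrane discs that carry the phototransduction proteins. New discs form at its base, where the ciliary membrane evaginates, and the closing disc rim is shaped by peripherin-2 (Prph2) and its relative Rom1. A microtubule axoneme runs along the discs, and an extracellular matrix rich in hyaluronan and proteoglycans surrounds the outer segments. In the mouse retina the discs are assembled during the weeks after birth, and mutations in these genes are known from inherited retinal degeneration.

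Levels are log2 processed signal minus the 75th percentile of the array, so that a level of 0 equals that percentile. Differences are the KO-labelled array minus the WT-labelled array. Levels of different probes are not comparable with each other, because probes differ in how well they bind. The probe for Samd7 itself, A_55_P2138237, had a level of 4.68 on the WT-labelled array and 6.47 on the KO-labelled array, a difference of 1.78. The targeted gene was thus higher where the label names its loss; a probe outside the deleted sequence would check nothing, and where this probe lies is not known here. The arrays are therefore named by their labels, WT-labelled (wild type) and KO-labelled, and every direction below rests on them. Of the non-control spots, 60.3% were well above background on the WT-labelled array and 60.9% on the other. On lists of retinal cell markers, all 11 rod, 14 cone, 7 bipolar and 6 Müller glia markers were above background. These counts cannot check the tissue label, because most genes pass: 15952 of the 21367 named ones did so on 1 array or both. All 13 lens markers and 9 of 10 pigment epithelium markers passed as well.

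Each member probe had 1 spot per array. Precision was therefore taken from elsewhere in the arrays, in 2 ways that differ in size. Probes spotted repeatedly gave a pooled SD of the log2 difference between arrays of 0.05 at levels of 0 or more, from 174 probes. At levels of 4 or more it was 0.04, from 16 probes only. The scanner software's own error model gave a wider error of 0.20 to 0.21 for the difference of every member probe. Neither was measured across animals or repeated labellings, so multiples of them are not tests. In bulk RNA, fewer cells of a type and less RNA per cell cannot be told apart, so no difference below separates them.

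Of the 9 genes, 7 were lower on the KO-labelled array and 2 higher, and none was as much as 1.5-fold apart, against 6.17% of all named genes. The largest differences were those of Prom1 and Reep6, lower by 1.39-fold and 1.27-fold, and of Impg1, higher by 1.34-fold. The median difference of the 9 genes was -0.21 on the log2 scale. Over the 15267 named genes above background on both arrays it was -0.02. In all, 57.6% of the named genes were lower by any amount. At 2-fold, 0 members were counted, against 2.95% of all 15952 named genes above background on at least 1 array. At a log2 difference of 0.32 or more, 2 members were lower, against 7.59% of all named genes, and 1 was higher, against 6.11%. Dim genes scatter more, and among the 5892 genes at or above the level of the dimmest member the shares were 2.12% lower and 3.14% higher.

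**Figure D1:**
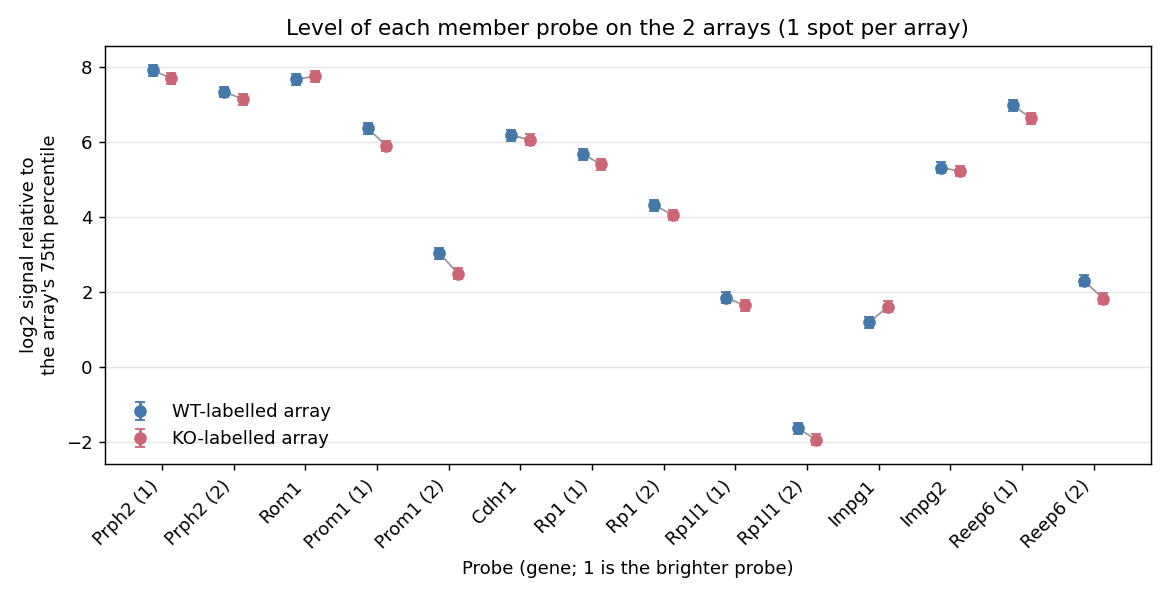
Log2 signal relative to the 75th percentile of each array (vertical axis) for the 14 member probes (horizontal axis), with 1 spot per array; blue points are the WT-labelled array, red points the KO-labelled array, and bars the scanner's error of each spot. The red point lies lower in 12 of the 14 probes, and higher for Rom1 and Impg1.

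The members of the disc rim pair lay on opposite sides of 0, Prph2 lower and Rom1 close to level. Prph2 is the tetraspanin that bends the disc rim, and its brighter probe, A_55_P2028094, had a processed signal of 139337 on the WT-labelled array and 115866 on the KO-labelled array. After scaling these were levels of 7.92 and 7.71, a difference of -0.21. The second Prph2 probe, A_51_P320340, gave levels of 7.34 and 7.15 and a difference of -0.19. The probes differed from each other by 0.02, less than the SD of repeated spots at their level, 0.04. Rom1, the partner that forms complexes with Prph2 at the rim, is covered by 1 probe, A_55_P2001048. Its processed signal was 117993 on the WT-labelled array and 120297 on the other, or levels of 7.68 and 7.76. Rom1 was thus 0.08 higher where Prph2 was at -0.21. The Rom1 difference is within the scanner error of 0.20 but over 2 times the SD of repeated spots at its level, 0.04. Among the 228 named genes with a mean level from 6 to 8, 7.46% were as low as Prph2 or lower and 15.4% as high as Rom1 or higher. The ratio of Prph2 to Rom1 signal was 1.23-fold lower on the KO-labelled array, a log2 shift of -0.29 with a scanner error of 0.29, and it lay between -0.34 and -0.28 under the other ways of processing.

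The promoters of this pair are shown because its members had differences of opposite sign, and those of the matrix pair below for the same reason. The choice of windows to print thus followed the values. Sequences are from RefSeq, build GRCm38.p6, and run from 250 bases before to 50 bases after the annotated start on the gene's strand. Of the 9 genes, 6 were matched, with 7 windows of 300 bases. Capitals mark matches on either strand to TAATCC or TAATCT, cores bound by the photoreceptor factors CRX and OTX2, to TGCTGA, part of the element bound by the rod factor NRL, to AAGTCA, a site of the rod nuclear receptor NR2E3, or to AGGTCA, a general nuclear receptor site. No match overlapped another.
Prph2, chr17:46910228-46910527, plus strand: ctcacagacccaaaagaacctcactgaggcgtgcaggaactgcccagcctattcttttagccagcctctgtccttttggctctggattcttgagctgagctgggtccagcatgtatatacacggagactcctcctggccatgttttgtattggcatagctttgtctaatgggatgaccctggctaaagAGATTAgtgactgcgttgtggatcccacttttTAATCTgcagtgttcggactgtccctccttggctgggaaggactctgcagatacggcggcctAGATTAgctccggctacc
Rom1, chr19:8929307-8929606, minus strand: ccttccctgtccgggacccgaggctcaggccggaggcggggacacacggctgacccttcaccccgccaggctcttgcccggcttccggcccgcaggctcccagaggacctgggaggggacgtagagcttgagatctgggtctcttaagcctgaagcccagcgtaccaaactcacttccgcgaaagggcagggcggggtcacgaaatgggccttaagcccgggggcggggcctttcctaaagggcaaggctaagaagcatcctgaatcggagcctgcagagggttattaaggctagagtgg
The Prph2 window held TAATCT 3 times, at bases -62 to -57 and 33 to 38 on the opposite strand and at -30 to -25 on the gene's strand, counted from the start as base 1. The Rom1 window held none of the motifs. TAATCT was found in 8.19% of all 32851 windows of this length, TAATCC in 7.06%, and at least 1 of the pair in 14.4%. Such matches describe the letters only, and their absence says nothing about the factors.

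The proteins at the base of the discs were both lower, to different extents. Prom1, a membrane protein of the nascent disc edges that is also made in other cells, is covered by 2 probes assigned to different transcripts. Probe A_55_P2059931, for NM_001163577, gave a processed signal of 47737 and 33152 on the WT-labelled and KO-labelled arrays, or levels of 6.38 and 5.90. Probe A_52_P402786, for NM_008935, gave levels of 3.04 and 2.50. Prom1 was the lowest gene of the set in both probes. Their differences were -0.47 and -0.54, each more than 2 scanner errors from 0. In the same range of level, 4 of the 228 genes (1.75%) were as low as the brighter Prom1 probe or lower, itself included. Cdhr1, a photoreceptor cadherin that links new discs to the inner segment, had a level of 6.19 on the WT-labelled array and 6.07 on the other in its 1 probe, A_51_P173114. Its difference of -0.13 lay within the scanner error and beyond the SD of repeated spots at its level, 0.04, and 18.0% of the genes in the same range of level were as low or lower. The annotated starts of Prom1 gave 2 promoter windows and that of Cdhr1 gave 1, and none of the 5 motifs occurred in them.

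**Figure D2:**
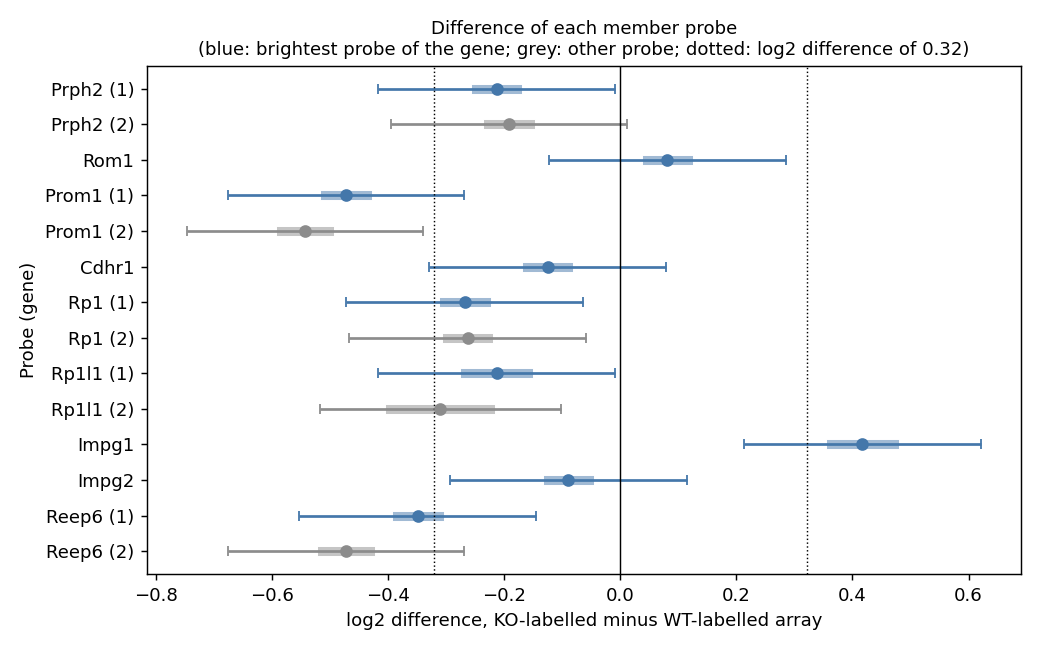
Log2 difference, KO-labelled minus WT-labelled array (horizontal axis), for each member probe (vertical axis); blue points are the brightest probe of a gene, grey points the other probe, thin bars the scanner error of the difference, thick bars the SD of repeated spots in the same range of level, and dotted lines mark a log2 difference of 0.32 either way. The paired probes of Prph2, Rp1, Rp1l1, Prom1 and Reep6 lie on the same side of 0, and Impg1 alone lies beyond the upper dotted line.

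The axonemal genes were both lower on the KO-labelled array, in all 4 of their probes. Rp1 encodes a doublecortin-domain protein that binds the microtubules of the outer segment and helps align the discs. Its brighter probe, A_55_P1979549, had levels of 5.68 on the WT-labelled array and 5.41 on the KO-labelled array, and its second probe, A_55_P2172899, levels of 4.32 and 4.06. The differences of -0.27 and -0.26 were the closest of any probe pair in the set. The related Rp1l1, a partner of Rp1 in the axoneme, had levels of 1.86 and 1.64 in probe A_55_P2247599, a difference of -0.21. Its dimmer probe, A_52_P528240, gave levels of -1.63 and -1.94 and a difference of -0.31. At that lower level the SD of repeated spots was 0.09, so the Rp1l1 probes differed by about as much as repeated spots do. The difference of Rp1 minus that of Rp1l1 was -0.05, within the scanner error of 0.29. Of the genes in the same ranges of level, 3.23% were as low as Rp1 or lower and 5.74% as low as Rp1l1 or lower.

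The matrix pair went in opposite directions. Impg1 and Impg2 encode the glycoproteins of the interphotoreceptor matrix that bind hyaluronan around the outer segments. Impg1 has 1 probe, A_55_P2023937, with a processed signal of 1319 on the WT-labelled array and 1698 on the KO-labelled array, or levels of 1.20 and 1.62. Impg2 has 1 probe, A_55_P2027979, with 23023 and 20852, or levels of 5.32 and 5.23. Impg1 was therefore 0.42 higher, while Impg2 was at -0.09. The first is 2.04 scanner errors from 0 and the second 0.44, and both lie beyond the SD of repeated spots at their levels, 0.05 and 0.04. The ratio of Impg1 to Impg2 signal was 1.42-fold higher on the KO-labelled array, a log2 shift of 0.51 with a scanner error of 0.29. Among the 3991 genes with a mean level from 0 to 2, 2.71% were as high as Impg1 or higher, and in the range from 4 to 6, 20.4% of 1240 genes were as low as Impg2 or lower. No second probe exists for either gene in the set, so these values rest on 1 spot per array each.
Impg1, chr9:80465389-80465688, minus strand: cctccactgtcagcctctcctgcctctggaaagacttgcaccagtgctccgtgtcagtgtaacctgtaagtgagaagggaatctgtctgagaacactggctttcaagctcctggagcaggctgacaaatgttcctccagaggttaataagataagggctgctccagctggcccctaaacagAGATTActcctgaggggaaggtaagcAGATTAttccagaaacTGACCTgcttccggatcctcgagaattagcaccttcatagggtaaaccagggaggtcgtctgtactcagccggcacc
Impg2, chr16:56204063-56204362, plus strand: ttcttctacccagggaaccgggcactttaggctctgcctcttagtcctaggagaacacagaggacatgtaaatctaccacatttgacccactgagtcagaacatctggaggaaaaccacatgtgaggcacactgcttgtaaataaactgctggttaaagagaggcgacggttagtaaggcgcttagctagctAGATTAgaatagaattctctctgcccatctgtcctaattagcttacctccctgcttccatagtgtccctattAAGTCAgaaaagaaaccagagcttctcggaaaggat
The Impg1 window held TAATCT on the opposite strand at bases -69 to -64 and -43 to -38, and AGGTCA on the opposite strand at -27 to -22. The Impg2 window held TAATCT on the opposite strand at bases -58 to -53 and AAGTCA on the gene's strand at 15 to 20. Windows of all genes held AGGTCA in 16.3%, AAGTCA in 15.1% and TGCTGA in 19.5% of cases. TAATCT was thus present in 3 of the 7 member windows, those of Prph2, Impg1 and Impg2, of which the first and last were lower and Impg1 higher.

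Reep6, which shapes the endoplasmic reticulum of rods and takes part in membrane trafficking to the outer segment, was lower in both probes. Probe A_55_P2159575 had a processed signal of 73047 on the WT-labelled array and 55281 on the KO-labelled array, or levels of 6.99 and 6.64. Probe A_55_P2159573 had signals of 2833 and 1968, or levels of 2.30 and 1.83. Both probes are assigned to the same transcript, NM_001204931. Their differences of -0.35 and -0.47 lay 0.12 apart, the widest gap of any member with 2 probes. Across the 4132 named genes with at least 2 probes above background, the median gap was 0.10, and 42.8% had a wider one than Reep6. In the level range from 6 to 8, 2.63% of genes were as low as the brighter Reep6 probe or lower. After loess scaling Reep6 was at -0.31, which is short of 0.32, so that Prom1 alone was then counted as lower.

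**Figure D3:**
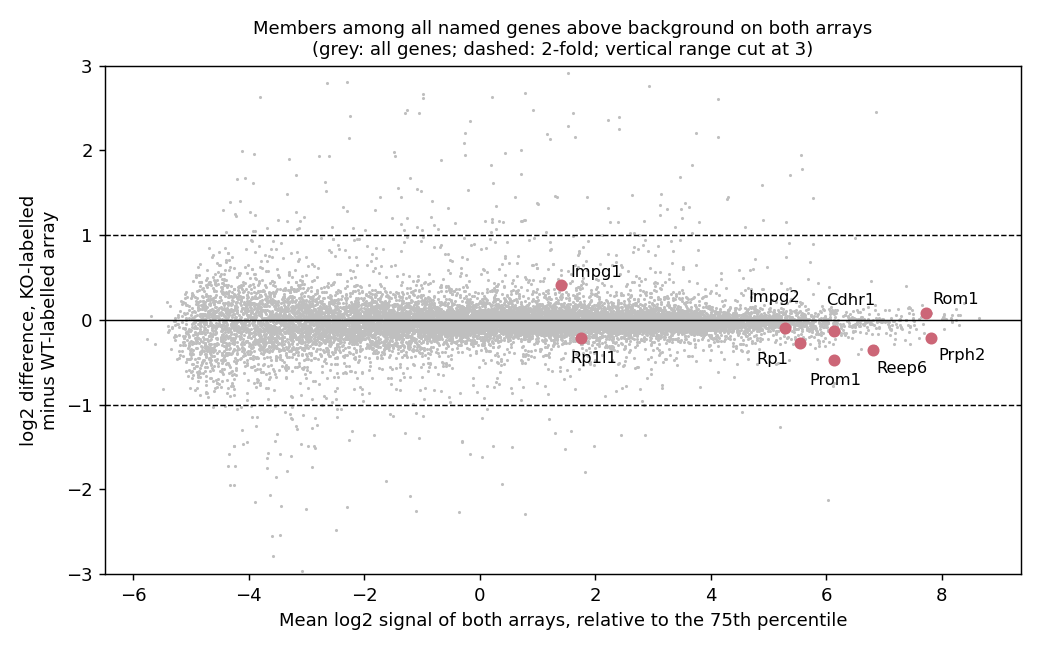
Log2 difference (vertical axis, KO-labelled minus WT-labelled array) against the mean log2 signal of both arrays (horizontal axis) for the 15267 named genes above background on both; red points are the 9 members, dashed lines mark 2-fold, and 16 genes lie outside the plotted range. All 9 members lie between the dashed lines. In their ranges of level, 1.75% of genes lie as low as Prom1 or lower and 2.63% as low as Reep6 or lower. For Impg1, 2.71% lie as high or higher.

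Across ways of processing, no member crossed 0. Prph2 ranged from -0.23 to -0.17, Prom1 from -0.51 to -0.43 and Reep6 from -0.41 to -0.31. Rp1 stayed between -0.27 and -0.23, Rp1l1 between -0.26 and -0.19, Cdhr1 between -0.15 and -0.09 and Impg2 between -0.11 and -0.06. On the higher side, Impg1 ranged from 0.40 to 0.44 and Rom1 from 0.07 to 0.12. The order of Prom1 as lowest and Impg1 as highest held in each of the 7 settings.

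**Figure D4:**
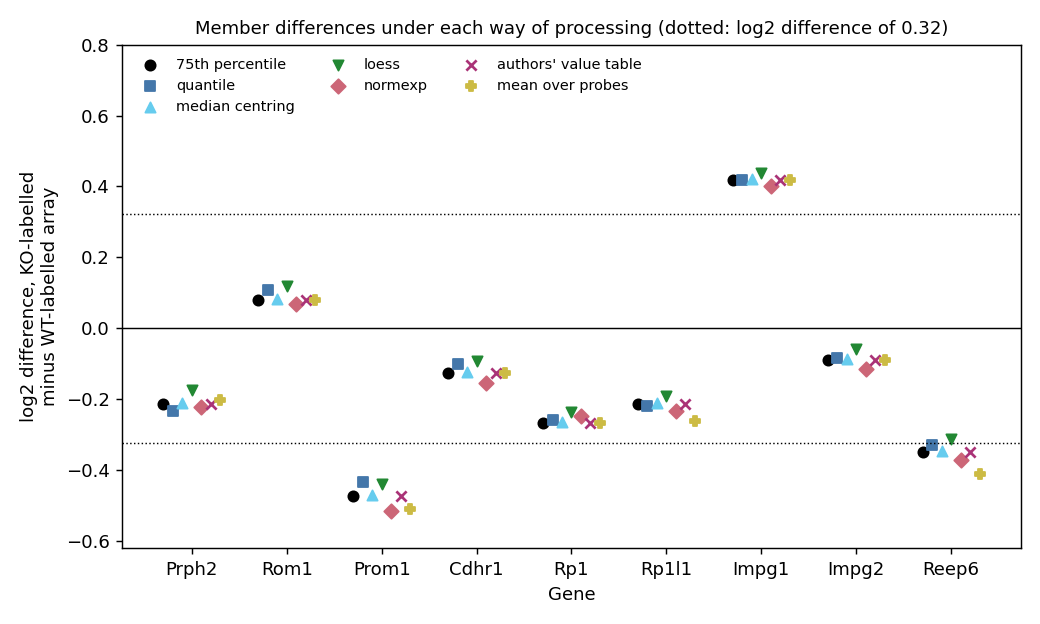
Log2 difference of each member (vertical axis) under 7 ways of processing (markers) by gene (horizontal axis); dotted lines mark a log2 difference of 0.32 either way. Markers of a gene lie close together, and Reep6 is the only member whose markers straddle a dotted line.

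Other genes of outer segment assembly and the connecting cilium were mostly lower as well. All 30 listed neighbours were above background on both arrays, with a median difference of -0.13. Of these, 23 were lower, against 57.6% of all named genes, 7 were higher, and 0 were 2-fold apart. The lowest were Tspan10, a tetraspanin also known from pigment cells, at -0.72, and Prcd, a small disc membrane protein, at -0.52. The highest were the ciliary genes Spata7, at 0.20, and Ttc8, at 0.19. In all, 5 of the 30 neighbours were lower by at least 0.32, Tspan10 and Prcd included, against 7.59% of all named genes. None was higher by as much, against 6.11%. Among these 5 were also the protocadherin Pcdh15 (-0.42) and the rod channel subunit Cngb1 (-0.40), which are named after their values were seen. The share of genes lower by at least 0.32 varied with level. Among genes above background on both arrays, it was 12.5% at levels from -4 to -2, where Tspan10 lies. From 4 to 6, where Prcd lies, it was 1.85%. Repeated spots at the level of Tspan10 had an SD of 0.19. The retinal disease genes Rpgr and Rpgrip1, of the connecting cilium, were at -0.10 and -0.05, and Rbp3, the retinoid-binding protein of the matrix, at -0.12; these 3 were also chosen after their values were seen.

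Family relatives that are not outer segment genes had a median of -0.08 over 14 measured on both arrays. Of these, 10 were lower, against 57.6% of all named genes, and 4 higher. The doublecortin-domain genes Dcdc2a (-0.29) and Dclk3 (-0.21) were the lowest, and the Reep6 relatives Reep3 (0.44) and Reep4 (0.34) the highest. The other Reep relatives, Reep1 (-0.02), Reep2 (-0.12) and Reep5 (0.05), lay nearer to 0, so Reep6 was lower than all 5 relatives, 2 of which were also below 0; these 3 were named after their values were seen. Of the 14 genes of the hyaluronan and proteoglycan matrix, 11 were measured on both arrays, with a median of -0.07. Their lowest members were the hyaluronan synthase Has2 (-0.53, at a level where repeated spots have an SD of 0.52) and the link protein Hapln3 (-0.14). The highest were Has1 (0.13) and the proteoglycan versican, Vcan (0.11). Both lay within the SD of repeated spots at their levels, 0.52 and 0.19. None of either list was 2-fold apart.

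**Figure D5:**
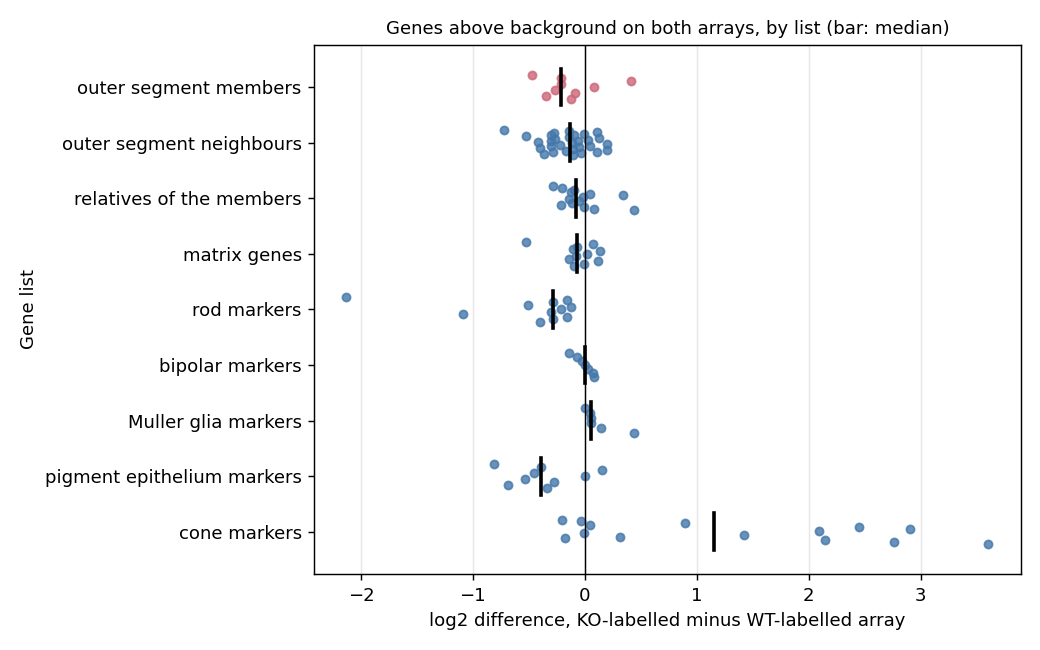
Log2 difference, KO-labelled minus WT-labelled array (horizontal axis), of genes above background on both arrays (points), by list, with the median as a bar. Members are in red and other lists in blue. The lens markers, with a median of 2.15, are not plotted. The members lie mostly left of 0, as do the neighbours, relatives, matrix genes, rod markers and pigment epithelium markers. Cone markers reach far to the right.

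Rod markers were lower and many cone markers higher on the KO-labelled array. The lists were chosen with earlier results of these data known, so their medians and counts are descriptions only. The 11 rod markers were all lower, against 57.6% of all named genes, with a median of -0.28. Their summed signal, relative to the 75th percentile, was 1157 on the WT-labelled array and 884 on the other. Such a sum is weighted to the probes that bind best: without Gnat1, left out after seeing the data, it was 1020 and 853. The lowest were the transducin subunit Gnat1 (-2.13) and the nuclear receptor Esrrb (-1.09), the only rod markers at least 2-fold lower. Over all 15952 named genes, 218 were at least 2-fold lower. The highest were Nr2e3 (-0.13) and Pde6a (-0.16). The channel subunits Cnga1 and Cngb1, are in both the rod list and the neighbour list. The 14 cone markers had a median of 1.16, with 10 higher and 4 lower, and summed signals of 180.0 and 557, or 130.3 and 285 without Gngt2, likewise left out after seeing the data. They ran from Thrb (-0.21) and the opsin Opn1mw (-0.17) to the channel subunit Cnga3 (2.91) and Ccdc136 (3.61). At 2-fold or more, 252 of all 15952 named genes were higher, and so were 7 cone markers. Those were Ccdc136, Cnga3, Rxrg (2.77), Gngt2 (2.45), Cngb3 (2.14), Opn1sw (2.09) and Kcne2 (1.42). The other cone markers differed less: Gnb3 (0.89), Arr3 (0.315), Gnat2 (0.04), Pde6h (-0.01) and Pde6c (-0.04), besides Thrb and Opn1mw. The first 5 of these were named after their values were seen. The cone list was thus split, and its median does not describe every cone gene. Bipolar markers had a median of 0.001, between Isl1 (-0.14) and Pcp2 (-0.07) below and Trpm1 (0.08) and Cabp5 (0.07) above. Müller glia markers had one of 0.06, between Rlbp1 (-0.0001) and Slc1a3 (0.04) below and Aqp4 (0.14) and Apoe (0.44) above.

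Genes listed as markers of tissues next to the retina also differed, and where their RNA came from was not tested. Of 13 lens markers, 13 were above background on at least 1 array and 11 on both. Their summed signal was 7.06 on the WT-labelled array and 31.0 on the other, and Mip and Lim2 were not well above background on the first. Of the lens markers measured on both arrays 10 were higher, from Bfsp1 (0.64) up to Crygs (2.63) and Crybb2 (2.80), and Bfsp2 was at -0.15. Of all named genes, 57.6% were lower by any amount. Of 10 pigment epithelium markers, 9 were above background and Lrat was not. Their summed signal was 52.2 and 44.4, their median -0.39, the lowest Pmel (-0.81) and Tyrp1 (-0.68), and the highest Best1 (0.15) and Rlbp1, which the Müller glia list holds too. The part of any of these lists in the member differences was not tested.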

How the data were processed

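Agilent Feature Extraction 11.5.1.1, run with protocol GE1_1105_Oct12 on an array design built on mm9, wrote the linear intensity values, per the file headers. The authors' deposited value table holds the same intensity values times a constant per array, with a median log2 ratio of table value to scanner signal of 1.31 (WT-labelled) and 1.37 (KO-labelled); how it was set was not given in the sources used here. It served as an alternative only.

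Flagged spots (119 and 163 of 59305 non-control spots) were left out. The 75th percentile of each array was subtracted from log2 processed signal, and spots of a probe were averaged on that scale. Probes were named through RefSeq transcript accessions in a gene table of assembly GRCm38.p6, used for names: 28330 of 55677 probes had 1 symbol, 0 had several and 27347 had none. The brightest probe above background stood for a gene. For genes above background on a single array, the difference is a bound: the dim side was set to the lowest signal well above background there, or to its own signal if higher. Only 2 arrays limit the precision, and no test was run.

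The alternatives were quantile scaling, median centring, loess, normexp on median signals with an offset of 50 (limma 3.58.1 in R 4.3.3), the authors' value table and the mean over probes; for counts also filters on dim probes. Loess used statsmodels 0.14.6 in Python 3.11.15 with a span of 0.3. The counting step was tested on simulated data.

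The members and lists were chosen with earlier results of these data known. The naming rule took the 9 members, Samd7, the 2 highest and 2 lowest of each list among genes above background on both arrays, and every listed gene at least 2-fold apart; the lens list is summarised. Protein sequences of the family pairs were not analysed here. A gene of the neighbour list is not reported here.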

Additional observations from a re-analysis of the deposited data

How the results depend on the processing

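The sign of all 9 member differences held under the 6 alternatives run for them, 54 values in all, of which 6 moved by over the SD of repeated spots (3 under loess, 1 each under quantile scaling, normexp and the mean over probes). The median of the members lay between -0.22 and -0.17, that of the outer segment neighbours between -0.14 and -0.10, and the Samd7 difference, an alternative chosen after seeing the data, between 1.78 and 1.82. Loess left 1 member lower by at least 0.32 (log2) instead of 2, because Reep6 lay at the edge of the threshold. Of the scalings, loess moved the median of all genes most, by 0.0208.

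Counts over all named genes depended on dim spots. Against 218 genes at least 2-fold lower and 252 higher, normexp gave 45 and 120, genes above background on both arrays only gave 94 and 160, and no filter gave 671 and 579. Lower thresholds gave 512 and 473 genes at 1.5-fold and 1211 and 974 at a log2 difference of 0.32. Requiring both arrays drops genes with a bound by construction, and the normexp offset shrinks dim differences by arithmetic; other causes were not tested. No paired analysis was possible because only 1 array exists per genotype. Signal over background did not limit the members, but 1 spot per array and 1 array per genotype did.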
